A study of Mus musculus with 8 samples.

Results

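Gene expression was compared among the 5 libraries of Ba/F3 cells labelled as transformed and carrying U2AF35(S34F), which are called transformed 4 to 8 here after the numbers in their titles. They were chosen by that label alone, out of 8 libraries in the series, and were described over the 13991 of 53465 genes with a mean CPM (counts scaled to a common library total) of 1 or more. Ba/F3 is an immortalized mouse line from C3H mice, labelled as pro-B cells, that grows on interleukin-3 (IL-3). The other 3 libraries are parental Ba/F3 cells with wild-type U2AF35, and no gene was tested against them. PolyA RNA was sequenced from 4 ug of total RNA per library. Separate cultures, clones or passages are not named in the labels, nor is the way U2AF35(S34F) was expressed or the presence of IL-3 in the medium. The spread described here is therefore that between 5 libraries.

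U2AF35, encoded by U2af1 in the mouse, is the smaller partner in the U2AF dimer and contacts the AG at the 3′ end of introns, and S34F is a substitution in its first zinc finger that recurs in myeloid neoplasms. In Ba/F3 cells, IL-3 binds a receptor made of an alpha chain and a beta chain (Il3ra, Csf2rb), and JAK2 and STAT5 carry the signal to genes for survival and growth. Growth of Ba/F3 cells without IL-3 is a standard readout of transformation.

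The 5 libraries held 36122062 (transformed 7) to 50050922 (transformed 5) counts, and CPM values are scaled by TMM factors of 0.976 to 1.02. A library with no count for a gene could still hold up to 0.0599 to 0.083 CPM, the level of 3 counts, and such limits cover counting error only. Mitochondrially encoded transcripts took 2.60% to 2.90% of counts. Long intergenic non-coding RNAs took 0.395% to 0.595%, most in transformed 7. Differences between a library and the others changed with transcript GC content across genes, which are not independent points: Spearman's rho was 0.18, 0.28, -0.08, -0.25 and -0.11 in transformed 4, 5, 6, 7 and 8. The lane tags put transformed 5 and 8 on lane 6 and transformed 4, 6 and 7 on lane 7. The name pro-B is taken from the labels, and 5 of 29 pro-B and early B markers passed the CPM filter. Cd79a, Cd79b, Ptprc, Tcf3 and Myb were measured, while Rag1, Rag2, Il7r and Blk had no counts in any of the 5 libraries and Pax5 had 4 in all.

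Transformed 5, 6 and 8 were close to each other, and transformed 4 and 7 each stood apart in a different direction. The median absolute log2 CPM difference over genes was 0.129 between transformed 5 and 6, 0.109 between 5 and 8, and 0.110 between 6 and 8. Transformed 4 was 0.230 to 0.259 away from these 3 libraries, and transformed 7 was 0.270 to 0.332 away. The 2 libraries that stood apart were farthest from each other, at 0.381, and 13.6% of genes differed at least 2-fold between them. Between transformed 6 and 8, 0.679% of genes did, the smallest share of the 10 pairs. The 3 parental pairs, given as background over their own set of genes, lay at 0.111 to 0.147. The first principal component held 60.8% of the variance and ran from transformed 4 (-55.0) to transformed 7 (51.2), with the other 3 libraries between -6.99 and 6.84. The second held 29.2% and set transformed 4 and 7 (27.4 and 29.2) against the other 3 (-24.9 to -11.9). No pair agreed within sampling noise: chi-square per degree of freedom was at least 18.03 in each.

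**Figure D1:**
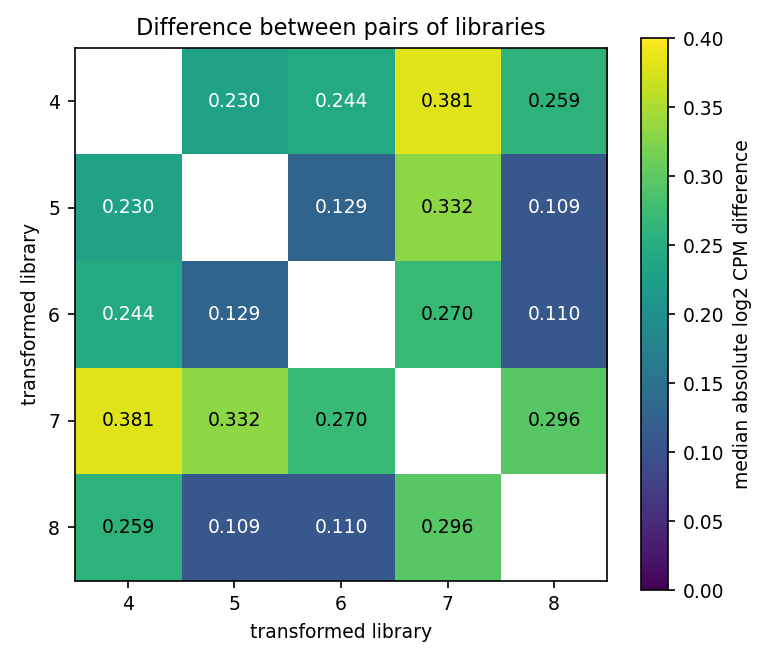
Median absolute log2 CPM difference over 13991 genes for each pair of transformed libraries, with both axes giving the library number. Transformed 5, 6 and 8 are 0.109 to 0.129 apart, and the pair 4 and 7 is the farthest at 0.381.

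Most genes differed little among the 5 libraries. In most genes that differed strongly, the largest gap lay between 1 library and the other 4. The ratio between the highest and lowest library (the range, on log2 CPM with a prior count of 2) had a median of 1.48-fold. It was at least 4-fold in 576 genes (4.12%), at least 2-fold in 2716 genes (19.4%) and at most 0.322 on the log2 scale (called constant here) in 2777 genes (19.8%). Among the 9825 genes with a mean of 10 CPM or more, where counting error is small, 2405 (24.5%) were constant. These are counts by a fixed size and not tests, since no label divides the 5 libraries except the lane. A gene high in 1 library can pass the filter on mean CPM through that library alone, so the count of strongly varying genes includes genes near 0 elsewhere. Adam18 and Snora57 lay just outside the 4-fold limit, and Gmpr and Ephb2 just inside it.

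Of the 576 genes with a 4-fold range, 525 (91.1%) had their largest gap between 1 library and the other 4, and in 514 (89.2%) that library was transformed 4 or transformed 7. By this largest gap, transformed 7 was set above the rest in 205 and below in 51. Transformed 4 was set below the rest in 152 and above in 106. The other 4 libraries need not be level: the largest gap of Cp, which set transformed 4 below, was 0.409 of its range. Over all 13991 genes, 1 library stood apart from the rest by more than the critical gap of 0.71 of the range in 1999 (14.3%). That library was transformed 4 in 425 genes as the higher and in 388 as the lower, and transformed 7 in 449 and 647. Each of transformed 5, 6 and 8 stood apart in at most 32 genes in either direction. Transformed 5, 6 and 8 taken alone had 34 genes with a 4-fold range and 199 with a 2-fold range among 13844 genes, and 10588 (76.5%) were constant, though a range over 3 libraries is smaller than one over 5 by construction.

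**Figure D2:**
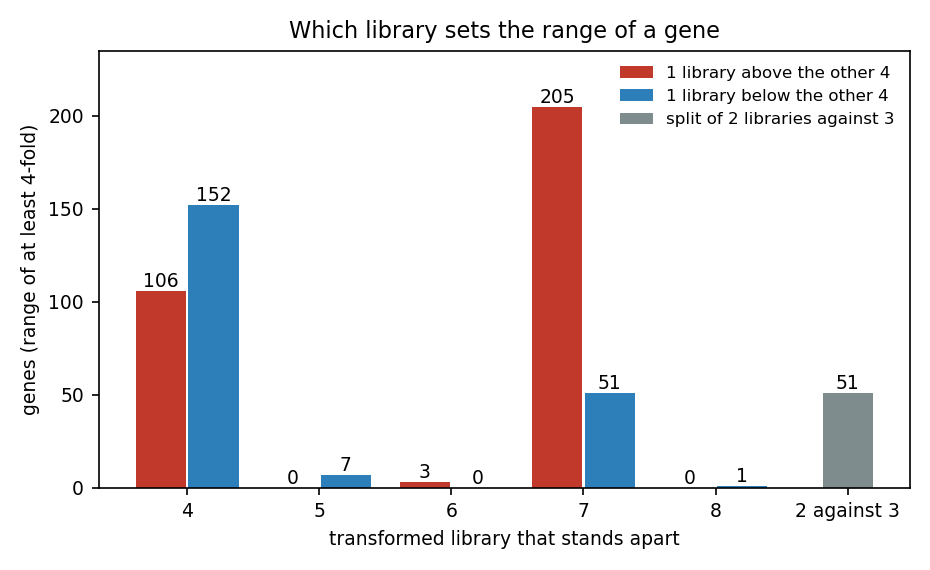
Number of genes with a range of at least 4-fold, by the library that the largest gap sets above (red) or below (blue) the other 4. The number split as 2 libraries against 3 is in grey. By that gap, transformed 7 is above the rest in 205 genes and transformed 4 below in 152, and the 51 genes of the last bar are split between 2 and 3 libraries.

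Transformed 4 was set apart by genes near 0 in it alone and by genes found in it alone. Il2ra (chr2:11642807-11693193, GRCm38), the alpha chain of the IL-2 receptor and a STAT5 target in lymphocytes, was measured at 2.27 CPM in transformed 4 and at 435, 588, 879 and 500.4 CPM in transformed 5, 6, 7 and 8. Mycn (chr12:12936093-12941914), a MYC family transcription factor, was at 1.42 CPM against 87.3, 106, 129 and 86.9 CPM. Both genes were thus well expressed in 4 libraries and near 0 in transformed 4, with ranges of 388-fold and 90.5-fold. Olfm3, which encodes a secreted olfactomedin protein, had no count in transformed 4 and 7.04, 8.09, 11.9 and 10.1 CPM in the others. Against the 3-count limit this is at least 117-fold lower. Csgalnact1, a chondroitin sulfate synthesis enzyme, and Rph3al, an exocytosis effector, had 3 and 2 counts in transformed 4 and 501 to 553 and 326 to 388 counts in the other 4. Dusp5, a phosphatase that acts on ERK, was at 16.9 CPM in transformed 4 and at 74.4 to 92.3 CPM elsewhere. Gvin1, an interferon-inducible very large GTPase with near-identical neighbours among which reads may be split, was at 0.662 CPM in transformed 4 and 35.3 to 109 CPM in the others.

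Other genes were found in transformed 4 and hardly elsewhere. F13a1 (chr13:36867178-37050244), the catalytic subunit of coagulation factor XIII, which monocytes and megakaryocytes carry, had 3011 counts (60.4 CPM) in transformed 4 and 0 counts in each of the other 4, at least 709-fold higher than the 3-count limit allows in them. Ttll13 (chr7:80246376-80260821), a member of the family that adds glutamate chains to tubulin, was at 54.5 CPM in transformed 4 and 0.18, 0.22, 0.37 and 0.19 CPM in transformed 5 to 8. Arhgap15, a Rac GTPase-activating protein, had 950 counts in transformed 4 and 0 to 13 in the others. Neo1, the netrin receptor neogenin, was at 42.8 CPM in transformed 4 and at 1.253 to 3.94 CPM elsewhere. Lrtm2, with 275 counts against 2 to 12, and BC039966, with 265 against 0 to 4, showed the same split. They were among 18 genes with at most 3 counts in some library and at least 5 CPM in another, a rule added after the values were seen. Of these 18, transformed 4 alone was higher in 6 and lower in 5, and transformed 7 alone was higher in 5.

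A pair of casein genes ran from almost nothing in transformed 4 to its highest level in transformed 7, with ratios of 2790 for Csn1s1 and 885 for Csn2 between these libraries. Csn1s1 and Csn2 lie next to each other on chromosome 5 and encode the milk proteins alpha-S1 and beta casein, textbook STAT5 targets of the mammary gland. Their upstream sequences are shown because the 2 genes moved together through all 5 libraries. Each is the 250 bases before the RefSeq start on GRCm38.p6, read 5′ to 3′ on the gene's strand (Csn1s1, chr5:87665958-87666207, plus; Csn2, chr5:87699426-87699675, minus), with matches to TTCNNNGAA, the letters that STAT5 is known to bind, in capitals:
Csn1s1: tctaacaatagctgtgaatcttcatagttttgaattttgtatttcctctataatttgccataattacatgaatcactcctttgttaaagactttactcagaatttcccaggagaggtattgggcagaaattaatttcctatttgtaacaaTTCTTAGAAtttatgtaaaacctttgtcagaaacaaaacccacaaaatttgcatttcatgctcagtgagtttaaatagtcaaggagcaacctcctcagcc
Csn2: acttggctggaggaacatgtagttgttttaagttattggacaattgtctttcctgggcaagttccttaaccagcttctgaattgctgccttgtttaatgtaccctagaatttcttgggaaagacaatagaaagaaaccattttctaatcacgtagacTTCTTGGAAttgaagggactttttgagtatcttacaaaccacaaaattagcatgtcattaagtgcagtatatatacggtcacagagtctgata
Each window held 1 match, which begins 100 and 93 bases before the start. The motif is its own reverse complement, and 7.02% of 32851 RefSeq windows of this length held it. A match is a description of letters and not of binding.

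Csn1s1 was measured at 0.10 CPM (5 counts) in transformed 4 and at 14.5, 24.3, 280 and 21.6 CPM in transformed 5, 6, 7 and 8. Csn2 was at 0.54 CPM (27 counts) in transformed 4 and at 48.0, 64.4, 479 and 59.8 CPM. Both were thus lowest in transformed 4, at one level in transformed 5, 6 and 8, and highest in transformed 7. The other 5 members of the list, Csn1s2a, Csn1s2b, Csn3, Odam and Sult1d1, stayed below 1 CPM in every library. The same order held for Lilrb4a (chr10:51490956-51496611), an inhibitory receptor of myeloid cells, at 2.41, 157, 353, 1471 and 246 CPM in transformed 4 to 8. Its neighbour Lilr4b was at 4.39, 208, 407, 1796 and 389 CPM, but the 2 genes are near-identical copies and reads may be divided between them. Cp, the copper carrier ceruloplasmin, was at 0.62, 5.47, 13.7, 117 and 18.8 CPM. Ankrd36, an ankyrin repeat gene, was at 0.34, 6.37, 10.8, 59.5 and 6.89 CPM. In these 4 genes, as in the caseins, the lowest library was transformed 4 and the highest was transformed 7.

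**Figure D3:**
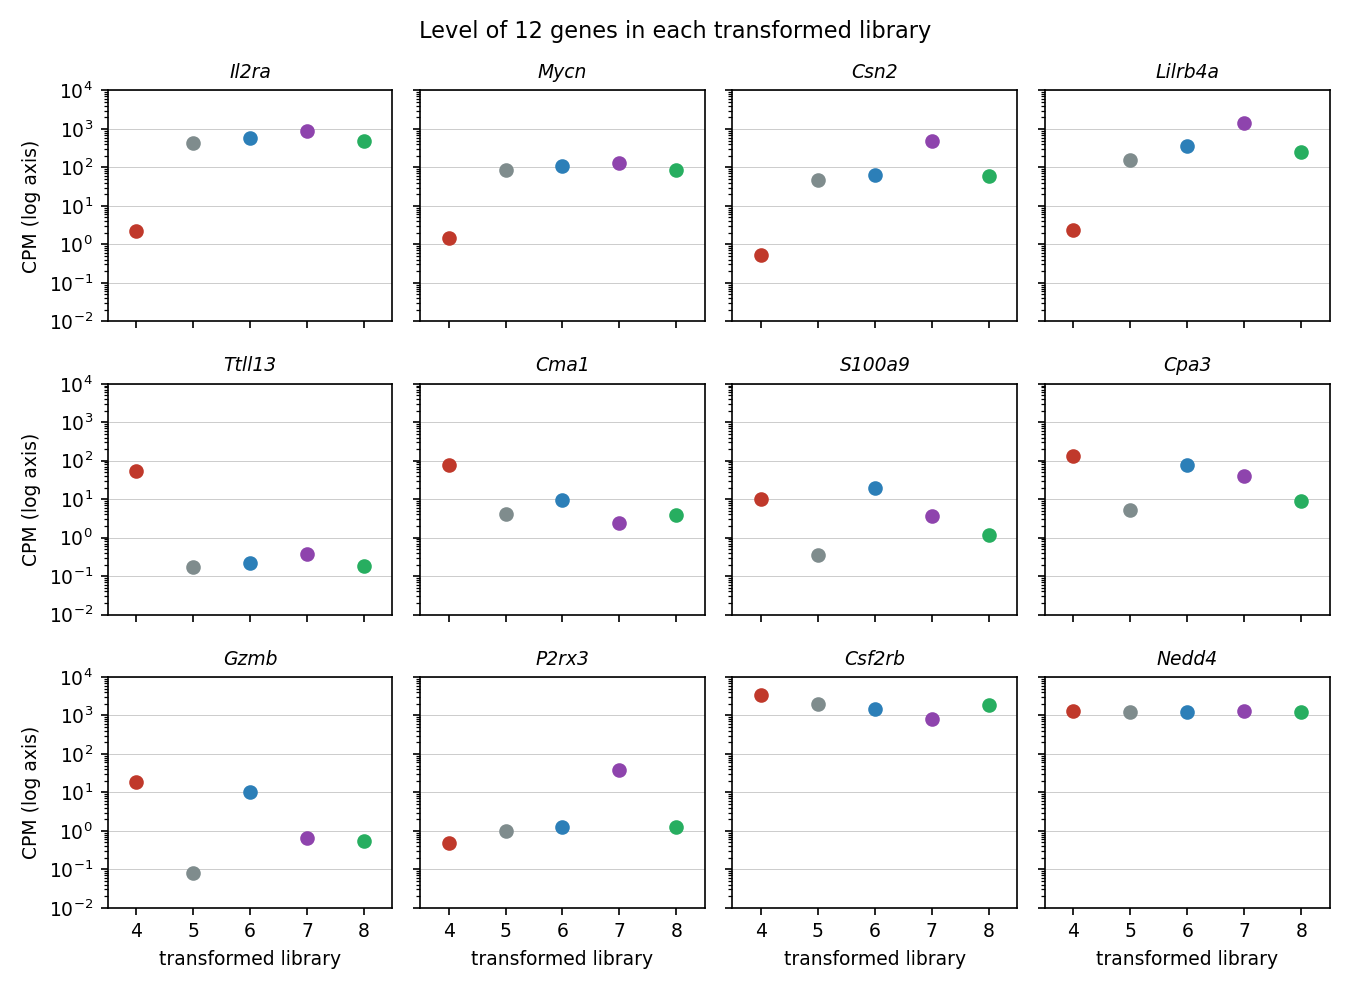
CPM on a log axis of 12 genes in transformed 4 to 8, 1 point per library. Il2ra, Mycn, Csn2 and Lilrb4a are lowest in transformed 4, Ttll13 and Cma1 are highest in it, S100a9 and Gzmb are higher in transformed 4 and 6, P2rx3 is highest in transformed 7, and Nedd4 is level.

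Transformed 7 had the highest levels of the genes that cells switch on when amino acids are short or the endoplasmic reticulum is stressed. In that response, kinases phosphorylate eIF2 alpha, general translation slows, and the transcription factor ATF4 induces genes for amino acid uptake, synthesis and tRNA charging. Of 36 genes on the list, 31 were measured, and transformed 7 was the highest library in 28, where it is the highest in 32.4% of all genes. The range was at least 2-fold in 23 of 31. The mean log2 CPM of the list, set to 0 over the 5 libraries, was -0.59, -0.54, 0.03, 1.14 and -0.04 in transformed 4 to 8. The list's mean GC content was 52.7% against 49.2% for all genes, and removal of the GC trend left a range of 1.84 in place of 1.73. The 2 members with the largest ranges and a RefSeq entry are shown, taken by range, on GRCm38.p6 (Fgf21, chr7:45615491-45615740, minus, and Nupr1, chr7:126625471-126625720, minus). Both hold a match to TGATGNAA or its reverse complement, the core that ATF4 and C/EBP are known to bind, in capitals:
Fgf21: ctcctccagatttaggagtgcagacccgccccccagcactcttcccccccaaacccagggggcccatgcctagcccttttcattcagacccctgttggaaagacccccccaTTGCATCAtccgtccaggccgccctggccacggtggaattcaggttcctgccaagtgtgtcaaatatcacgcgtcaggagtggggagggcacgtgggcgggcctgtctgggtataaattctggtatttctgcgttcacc
Nupr1: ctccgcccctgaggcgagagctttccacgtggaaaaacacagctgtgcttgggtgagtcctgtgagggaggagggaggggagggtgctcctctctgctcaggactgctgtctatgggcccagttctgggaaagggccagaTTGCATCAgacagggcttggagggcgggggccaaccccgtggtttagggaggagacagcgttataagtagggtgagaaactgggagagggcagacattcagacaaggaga
The motif was in 8 of the 26 measured members with an entry and in 3.45% of all 32851 windows. It was in neither Ddit3, Atf5 nor Trib3 within these 250 bases.

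Fgf21, a stress-induced hormone, was measured at 0.32, 1.61, 1.93, 26.6 and 8.80 CPM in transformed 4 to 8. Nupr1, a stress-induced chromatin protein, was at 5.51, 7.61, 18.1, 147 and 16.1 CPM. Cth, the cystathionine lyase that makes cysteine, was at 0.16, 0.51, 0.64, 15.5 and 0.77 CPM. Transformed 7 was the only high library for Cth, while transformed 8 was second for Fgf21. Among the transcription factors, Ddit3 (CHOP) was at 15.3, 15.6, 19.2, 125 and 24.0 CPM, and Atf5 at 17.5, 17.0, 27.2, 216 and 24.6 CPM. Atf4 itself was at 355, 371, 505, 937 and 476 CPM. Ppp1r15a, which returns eIF2 alpha to its unphosphorylated form, was at 73.7, 88.1, 112, 659 and 162 CPM. The pseudokinase gene Trib3 was at 51.3, 26.8, 77.3, 260 and 57.1 CPM. For each of these, transformed 7 lay above the other 4 libraries. The asparagine synthetase gene Asns (315, 250.4, 452, 746 and 370.4 CPM) and the mitochondrial folate enzyme gene Mthfd2 (316, 294, 576, 840.2 and 417 CPM) had smaller ranges, with transformed 6 second. The 3 measured members in which transformed 7 was not the highest were the serine synthesis genes. Psat1 was highest in transformed 6 (677 CPM, 607 CPM in transformed 7), and Phgdh (616 CPM) and Psph (4.90 CPM) were highest in transformed 8.

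Genes of inflammation were also highest in transformed 7. NF-kB is kept in the cytoplasm by its inhibitors and, once freed, induces cytokines and its own regulators. Transformed 7 was highest in 20 of the 25 measured members of that list, whose mean was -0.62, -0.38, 0.10, 0.78 and 0.13. Tnf, the gene of tumour necrosis factor, was measured at 24.3, 34.7, 47.3, 171 and 56.5 CPM in transformed 4 to 8. Lta, the gene of lymphotoxin alpha, was at 3.01, 16.4, 23.2, 62.1 and 21.5 CPM. The chemokine gene Ccl3 was at 41.6, 64.3, 143, 535 and 247 CPM. In all 3 the lowest library was transformed 4 and the highest transformed 7. Nfkbiz, a nuclear modulator of NF-kB, was lowest in transformed 5 (39.2 CPM) and highest in transformed 7 (275 CPM). Klf6, an early response transcription factor, was at 49.7, 79.0, 126, 349 and 130 CPM, and transformed 7 was the highest library in 12 of the 24 RAS-MAPK and immediate early genes measured, beside 32.4% of all genes, and transformed 4 in 6. Among genes with a mean of 5 CPM or more, 1 of the 2 largest gaps above the rest in transformed 7 was that of P2rx3, an ATP-gated channel, which was at 37.9 CPM against 0.48 to 1.28 CPM. Transformed 7 also had the fewest counts, the highest share of long intergenic non-coding RNA and the negative relation with GC content given above. With the GC trend removed, transformed 7 was the highest in 29 of 31 genes of the ATF4 list and 20 of 25 of the NF-kB list, and the lowest in 28 of 33 of the cholesterol list. The part of depth and of the non-coding share was not tested.

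Sterol and lipid synthesis, cell division and splicing genes lay on the low side in transformed 7. Of 33 genes of cholesterol and fatty acid synthesis, transformed 7 was the lowest library in 28 (34.6% of all genes), and its list mean was -0.63 while the other 4 ranged from 0.04 to 0.25. Dhcr7, which makes cholesterol in the last step of its pathway, was measured at 30.8 CPM in transformed 7 and at 94.6 to 113 CPM in the others. Scd1, a fatty acid desaturase, was at 5.25 CPM against 14.4 to 17.4 CPM, and Scd2 at 369 CPM against 1036 to 1145 CPM. These 3 genes were at a common level in 4 libraries and below it in transformed 7. Transformed 7 was the lowest in 31 of 42 genes of mitosis, with a list mean of -0.28. The kinase gene Plk1 was at 60.6 CPM there and at 109 to 138 CPM elsewhere. In DNA replication it was the lowest in 29 of 42, and Tk1, a thymidine kinase, was at 60.5 CPM against 105 to 131 CPM. Among factors of splice site recognition and SR proteins, transformed 7 was the lowest in 23 of 31, but none of the 31 had a 2-fold range. The shift was as small in 35 nuclear genes of oxidative phosphorylation, in which transformed 7 was the lowest in 27 and no range passed 0.961 on the log2 scale. Trim58, a ubiquitin ligase of red cell precursors, had the largest gap below the rest among genes with a mean of 5 CPM or more, at 1.53 CPM in transformed 7 against 8.55 to 11.005 CPM.

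Lineage genes of several blood cell types varied among the libraries, and not by the same libraries for each type. In bulk RNA, fewer cells of a type and less RNA per cell cannot be told apart. All 13 measured genes of the 28 on the mast cell and basophil list had a 2-fold range, beside 19.4% of all genes. Their mean was 0.79, -0.77, -0.04, 0.34 and -0.32. Cma1, the protease mast cell chymase, was measured at 77.8 CPM in transformed 4 and 4.00, 9.34, 2.35 and 3.92 CPM in the others. Cpa3, the mast cell carboxypeptidase, was at 135, 5.33, 79.5, 39.4 and 9.13 CPM. Hdc, which makes histamine, was at 172, 16.5, 24.5, 37.4 and 28.1 CPM, and Gata2, a transcription factor of mast cells and progenitors, at 1259, 520, 540, 357 and 531 CPM. Transformed 4 was thus the highest library for these 4 genes, whereas Fcer1g, Srgn and Il13 were highest in transformed 7. Of the defining genes of mast cells, Ms4a2 was at 10.3 CPM in transformed 4 and 1.15 to 1.49 CPM elsewhere, while Kit, Fcer1a, Tpsg1, Mcpt1 and Mrgprb2 were listed at 0 in all 5. The summed level of the 28 genes was 2651, 1130, 1469, 2101 and 1442 CPM. This sum mixes members of unlike level. Gata2 was 1259 CPM of it in transformed 4, and Cma1 and Cpa3 were 2.35 and 39.4 CPM of it in transformed 7.

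Neutrophil granule genes did not share 1 order. The mean of the 14 measured was 0.41, -0.88, 0.69, 0.11 and -0.32 in transformed 4 to 8. The highest library was transformed 6 in 6 genes, 7 in 5, 4 in 2 and 5 in 1, and the lowest was transformed 5 in 6, 7 in 4, and 4 and 6 in 2 each. Over all genes, transformed 6, 7, 4 and 5 were the highest in 9.71%, 32.4%, 30.8% and 15.6%. Transformed 5, 7, 4 and 6 were the lowest in 15.8%, 34.6%, 28.2% and 8.36%, so the counts of transformed 7 were near its shares. The summed level was 2153 CPM in transformed 7, of which Lcn2 alone held 1500.2 CPM, and 477 to 660 CPM in the others. S100a9, a calcium-binding protein of neutrophils, was measured at 10.4, 0.35, 19.8, 3.74 and 1.17 CPM in transformed 4 to 8. S100a8, its partner, was at 5.91, 0.22, 11.6, 1.99 and 0.61 CPM, and the protease gene Ctsg at 4.29, 0.14, 5.32, 1.33 and 0.54 CPM. For all 3, the 3 lane 7 libraries lay above the 2 lane 6 libraries. Mpo, the myeloperoxidase of primary granules, was at 21.7, 1.98, 23.1, 1.503 and 3.39 CPM, so that transformed 7, on lane 7, was the lowest. Gzmb, the serine protease granzyme B, was at 19.1, 0.08, 10.4, 0.65 and 0.54 CPM, with 4 counts in transformed 5. Prtn3, another granule protease, was at 1.79 CPM in transformed 7 and 8.86 to 13.7 CPM in the others. Lcn2, an iron-siderophore binding protein, was at 1500.2 CPM in transformed 7, 175 CPM in transformed 8 and 34.0 to 75.6 CPM in the rest. Within transformed 5, 6 and 8, the 7 genes with the largest ranges, Gzmb, BC100530, S100a9, S100a8, Ctsg, Clec5a and Stfa1, were all highest in transformed 6. BC100530, named like Clec5a and Stfa1 after its values were seen, had 301 counts in transformed 6 and 2 and 17 in transformed 5 and 8.

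Eosinophil and erythroid genes ran against monocyte genes. Of all genes, 30.8% were highest in transformed 4 and 34.6% lowest in transformed 7. Of the 7 eosinophil genes measured, 5 were highest in transformed 4 and 6 lowest in transformed 7, and the list mean ran from 1.19 to -1.14 between these libraries. The 7 include Gata1, also on the erythroid list, and the receptor genes Csf2rb and Csf2rb2, between which reads may be shared. Prg2, Prg3, Ear1, Ear2, Ear6, Il5ra, Ccr3 and Alox15 were below the CPM filter. Il5ra had 1 count over the 5 libraries and Ear1 had 0. Epx, eosinophil peroxidase, had 502 counts (10.1 CPM) in transformed 4, 6, 31 and 10 counts in transformed 5, 6 and 8, and none in transformed 7. Epx passed the filter through transformed 4 alone, so its part in these counts and in the list mean follows from the filter. At a mean CPM limit of 5, which leaves out Epx, the range of the list mean was 1.69 in place of 2.33. Siglecf, a lectin of eosinophils, was at 46.6, 28.2, 24.2, 9.98 and 25.3 CPM. Of 15 erythroid and megakaryocyte genes, 12 were highest in transformed 4 and 10 lowest in transformed 7. Gata1, the transcription factor of both lineages, was at 206, 98.4, 73.8, 62.2 and 86.2 CPM, and Klf1, which activates globin genes, at 32.2, 21.8, 14.3, 5.39 and 19.6 CPM. Hbb-bs, an adult beta globin gene, was an exception with 289 counts in transformed 5, 60 in transformed 6 and 3 to 10 elsewhere. Among 11 monocyte, macrophage and dendritic cell genes, transformed 7 was the highest in 10, where it is the highest in 32.4% of all genes. Fcgr1, a high-affinity IgG receptor, was at 0.88, 8.18, 11.8, 88.9 and 10.2 CPM, Ctss, a lysosomal protease of antigen-presenting cells, at 1.72, 14.1, 16.8, 39.8 and 17.5 CPM, and Adgre1, the F4/80 antigen, at 48.0, 174, 238, 401 and 267 CPM. Cd74, the invariant chain of MHC class II, was at 312 CPM in transformed 7 and 43.1 to 62.7 CPM elsewhere. Of the defining monocyte genes, Maf and Klf4 were listed at 0 in all 5 libraries, and Csf1r had 26 counts over the 5. Of the early B lineage genes measured, Cd79b was at 21.9 CPM in transformed 4 and 10.8 to 12.9 CPM elsewhere, and Cd79a at 43.2 to 55.0 CPM in all 5.

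**Figure D4:**
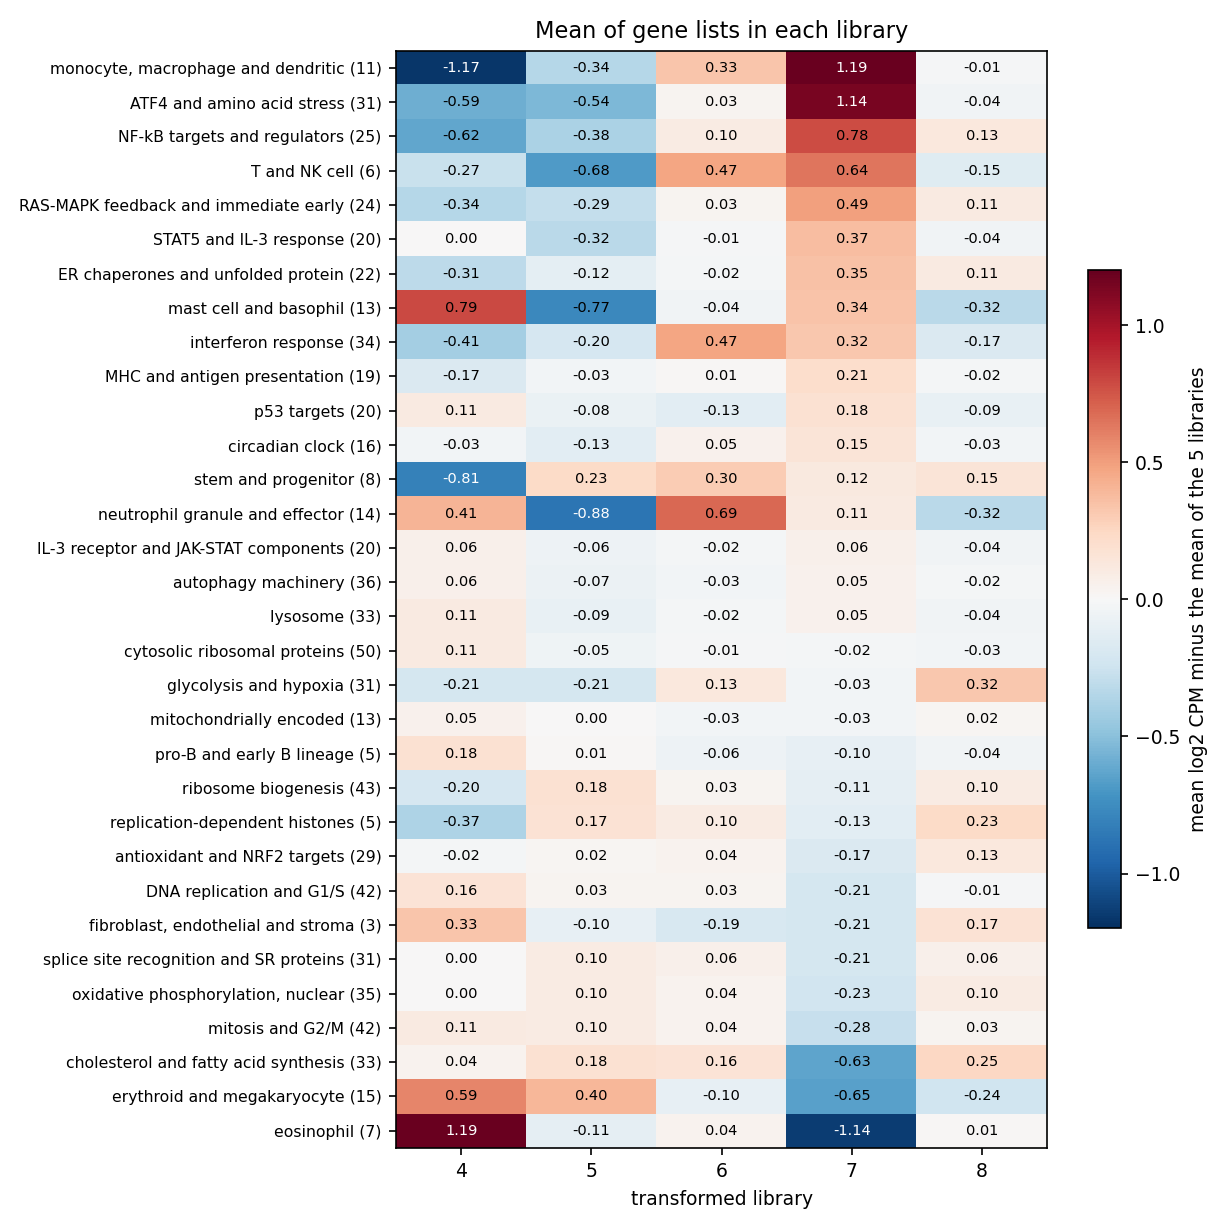
Mean log2 CPM of each gene list in transformed 4 to 8, minus the mean of the 5 libraries, with the number of measured genes in brackets. The casein list, with 2 genes and a range of 10.3, is left out. The largest values are in transformed 4 and 7: monocyte genes run from -1.17 to 1.19 and eosinophil genes from 1.19 to -1.14. The eosinophil mean includes Epx, which passed the filter through transformed 4 alone. Ribosomal protein and mitochondrially encoded genes stay within 0.11.

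Interferon response genes had their highest list means in transformed 6 and 7. Of 34 measured, 14 were highest in transformed 6, which is the highest library in 9.71% of all genes. Another 15 were highest in transformed 7, which is the highest in 32.4% of all genes. The list mean was -0.41, -0.20, 0.47, 0.32 and -0.17. Ifit1, which binds viral RNA, was measured at 0.98, 3.04, 9.85, 5.44 and 3.94 CPM, and the GTPase gene Mx2 at 0.28, 1.14, 3.89, 1.79 and 0.90 CPM. Mx1, its relative, was at 4.02 CPM in transformed 6 and 0.46 to 0.82 CPM elsewhere. Cxcl10, an interferon-induced chemokine, was at 18.5 CPM in transformed 6 against 2.79 to 9.53 CPM. In these 4 genes transformed 6 was highest, at low absolute levels, while Oas2 was highest in transformed 7 at 8.14 CPM. Eif2ak2, the interferon-induced kinase PKR, was level at 61.1 to 62.6 CPM in all 5.

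The beta chain genes of the IL-3 receptor and the ligand gene Il3 varied in opposite directions. Csf2rb (chr15:78325752-78353847), the beta chain shared by receptors for IL-3, IL-5 and GM-CSF, was measured at 3328, 1970, 1488, 819 and 1834 CPM in transformed 4 to 8, a 4.07-fold range. Csf2rb2, the near-identical mouse IL-3 beta chain with which reads may be shared, was at 2583, 1530, 1127, 605 and 1366 CPM. Both were highest in transformed 4 and lowest in transformed 7. Il3, the ligand, took the opposite order at 2.08, 3.45, 5.78, 11.1 and 5.70 CPM. Il3ra, the alpha chain, was at 60.02, 41.8, 45.3, 66.8 and 38.3 CPM, so that transformed 4 and 7 were both above the other 3. Jak2 was at 80.8 to 131 CPM and Stat5b at 86.5 to 120 CPM. Of 20 genes of the receptor and its JAK-STAT components, 6 had a 2-fold range (30%, beside 19.4% of all genes) and 5 were constant (25%, beside 19.8%), both near the share of all genes, and the list mean stayed within 0.13 between libraries. Among STAT5 and IL-3 response genes, Pim2, a survival kinase, was at 420.3, 83.5, 146, 590 and 269 CPM, high in transformed 4 and 7. Pim3, a related kinase, was at 6.68 CPM in transformed 4 and 0.17 to 0.57 CPM elsewhere. Transformed 7 was the highest in 14 of the 20 measured genes of that list, beside 32.4% of all genes. U2af1 was at 156, 143, 127, 91.4 and 131 CPM, a 1.71-fold range with no library standing apart. These counts do not separate the wild-type from the S34F transcript, and whether they include the introduced copy is not known.

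Transformed 5, 6 and 8 were the highest or the lowest library in fewer genes than transformed 4 and 7. Transformed 5 was the highest library in 15.6% and the lowest in 15.8% of genes, and transformed 8 in 11.6% and 13.0%. The figures for transformed 4 were 30.8% and 28.2%, and transformed 6 was the highest in 9.71% and the lowest in 8.36%. Fdx1, the electron carrier of mitochondrial steroid and lipoate synthesis, was at 50.8 CPM in transformed 5 against 15.3 to 33.1 CPM, and Mylk, myosin light chain kinase, at 40.4 CPM against 13.3 to 28.2 CPM. Transformed 5 was also the highest in 24 of 43 genes of ribosome biogenesis, such as Grwd1 at 79.1 CPM against 37.5 to 65.8 CPM. Transformed 8 was the highest in 17 of 31 glycolysis and hypoxia genes, whose mean there was 0.32. The glucose transporter gene Slc2a1 was at 72.1, 100.6, 180, 196 and 245 CPM, and Bnip3, a mitophagy receptor induced by hypoxia, at 44.2, 36.5, 64.5, 56.4 and 90.0 CPM. Not every member followed: Ndrg1, a hypoxia-induced gene, and Ero1l, which forms disulfide bonds, were highest in transformed 7 at 86.9 and 2238 CPM. Gbe1, the glycogen branching enzyme, was at 32.8 CPM in transformed 8 against 13.2 to 21.3 CPM, and Mt2, a metallothionein, at 67.3 CPM against 32.8 to 46.4 CPM. Ceacam16, a cell adhesion gene, was lowest there at 13.7 CPM against 26.9 to 45.7 CPM, and so was Msh5, a meiotic recombination gene, at 5.11 CPM against 8.31 to 29.5 CPM.

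The 10 genes with the smallest spread held their level in all 5 libraries to within a ratio of 1.05. Nedd4, a ubiquitin ligase, was measured at 1276, 1258, 1250.0, 1271 and 1258 CPM, a ratio of 1.02 between the highest and lowest. Itpr1, the IP3 receptor calcium channel, was at 138 to 142 CPM, Psmb4, a proteasome subunit, at 191 to 198 CPM, and Ap2a2, a clathrin adaptor subunit, at 134 to 139 CPM. Rpl19, a ribosomal protein gene, was at 559 to 587 CPM and Nono, an RNA-binding paraspeckle protein, at 496 to 518 CPM. Tmem214, Zfp91, Dock8 and the interferon-induced Eif2ak2, given above, were the other 4. Of 50 cytosolic ribosomal protein genes, none had a 2-fold range and 35 were constant, beside 19.8% of all genes. Of 13 mitochondrially encoded genes, none had a 2-fold range and 8 were constant. Of 36 autophagy genes, 4 had a 2-fold range (11.1%, beside 19.4% of all genes) and 10 were constant. Atg7, which activates the ubiquitin-like proteins of autophagosome formation, was at 40.4 to 47.5 CPM. Of the 4, Sqstm1, the cargo receptor p62, was at 319, 255, 342, 1379 and 607 CPM, highest in transformed 7. Ulk1, the kinase that starts autophagy, was at 36.7, 24.9, 24.7, 14.2 and 21.8 CPM, and Atg9a and Atg14, named after their values were seen, were likewise highest in transformed 4 and lowest in transformed 7.

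Whole stretches of chromosomes were higher or lower in transformed 4 than in the other libraries. Chromosome 2 was higher along its length: the median over its 1108 genes, against the median of the other 4 libraries, was 0.30 on the log2 scale, and 82.6% of the genes were above. Chromosome 14 (median 0.23, 73.7% of genes above) and chromosome 15 (0.21, 75.6%) were also higher. Chromosome 18 was lower (-0.39, with 17.3% of its 318 genes above), and chromosome 9 was lower at its distal end (-0.15 over the chromosome, 33.7% above). The other libraries stayed between -0.071 and 0.119 on these 5 chromosomes. In transformed 6, chromosome 4 was higher by 0.13, with 79.9% of genes above. Within transformed 5, 6 and 8 alone, its median difference from the mean of the 3 was 0.099, and all 4 stretches found there at a lower limit of 0.1 lay on chromosome 4 in transformed 6. No copy number was measured here, so these are differences in RNA.

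**Figure D5:**
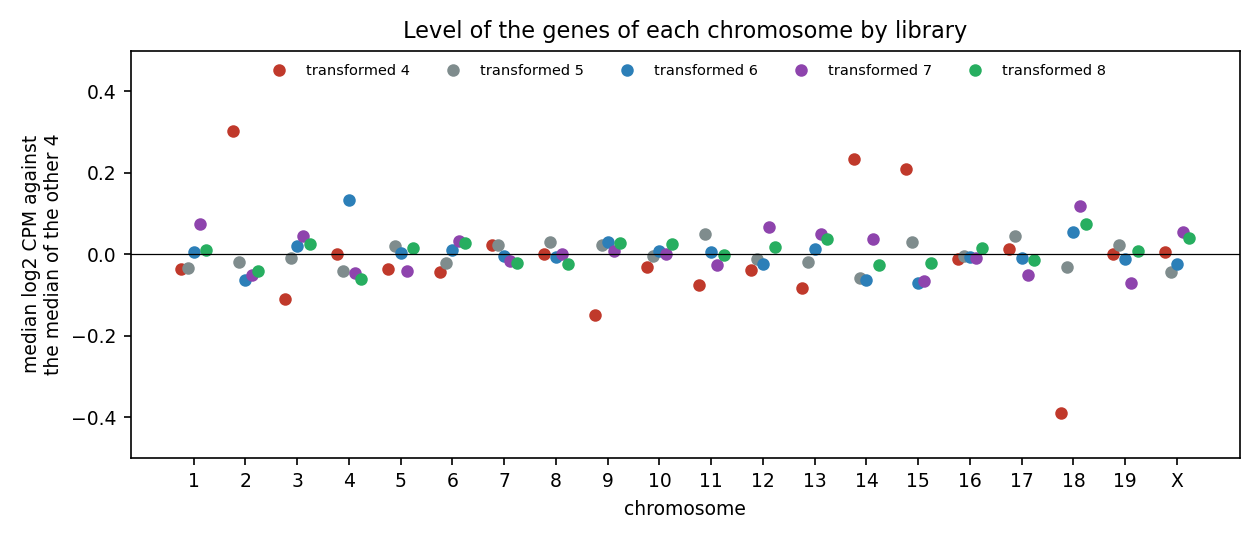
Median over the genes of each chromosome of log2 CPM in a library minus the median of the other 4, centred on all genes, 1 point per library. Transformed 4 is high on chromosomes 2, 14 and 15 and low on 18 and 9, and transformed 6 is high on 4.

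A running median over 51 genes of the log2 difference from the median of all 5 libraries, which stayed past 0.25 for at least 51 genes, marked 11 segments, 10 in transformed 4 and 1 in transformed 7. Each library counts in that median, so a gene in which it is itself the middle library has a difference of 0. Of the 4 on chromosome 2, the first spanned chr2:23068167-37443171, from Acbd5 to Zbtb6, with a median of 0.33 and 88.8% of its 197 genes higher. It held Gsn, the actin-severing protein gelsolin, at 156 CPM in transformed 4 and 10.7 to 17.6 CPM elsewhere, and Ptgs1, the cyclooxygenase COX-1, at 207 CPM against 27.3 to 58.9 CPM. These 2 genes were thus far above the shift of their neighbours, while the end genes Acbd5 (23.1 CPM against 16.3 to 19.2 CPM) and Zbtb6 (31.7 CPM against 24.3 to 26.5 CPM) were close to it. Il2ra is also on chromosome 2, proximal to this segment, and went the other way. The chromosome 14 segment, chr14:54360834-56659794 from Oxa1l to Parp4, had a median of 0.41 and held Cma1. The chromosome 15 segment, chr15:76085518-78930465 from Nrbp2 to Lgals1, had a median of 0.39 and held Csf2rb and Csf2rb2. The last segments on chromosome 2 ended at Gid8.

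On chromosome 18, a segment of 152 genes from Zmat2 to Adnp2, chr18:36793876-80151482, had a median of -0.40 in transformed 4, with 80.9% of genes lower. Rab27b, a small GTPase of secretory granules, was at 9.86 CPM in transformed 4 against 48.6 to 114 CPM, and Hdhd2, a phosphatase-like gene, at 22.4 CPM against 45.0 to 47.5 CPM. On chromosome 9, 2 segments from chr9:94517864 to chr9:118486132 had medians of -0.35 and -0.31. They held Pik3cb, a catalytic subunit of PI3-kinase, at 28.9 CPM in transformed 4 against 73.8 to 90.7 CPM, and Gpx1, a glutathione peroxidase, at 81.5 CPM against 110 to 175 CPM. The distal segment of chromosome 11, from Gna13 to chr11:120231585, had a median of -0.28. In transformed 7, the segment chr10:79888712-81252123 had a median of -0.32 over 61 genes and a mean GC content of 58.6%, beside the negative relation of that library's values with GC. Mknk2, a kinase that phosphorylates eIF4E, was at 46.7 CPM there against 96.4 to 125 CPM. With the GC trend removed, its median was -0.18 and it was no longer marked. The chromosome 15 segment and the second of chromosome 2 were also no longer marked in transformed 4, at 0.28 and 0.30. The other 8 overlapped a segment marked in the same library after removal, which again gave 11 segments in all.

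The lane was the only label that divided the 5 libraries. Tested as lane 7 (transformed 4, 6 and 7) against lane 6 (5 and 8) with edgeR's quasi-likelihood test, 0 of 13991 genes were higher and 0 lower at an adjusted p under 0.05, and the smallest adjusted p was 0.913. At an unadjusted p under 0.05, 333 genes (2.38%) were counted. DESeq2 called 12 genes, all higher in lane 7, among them Cpa3 (log2 fold change 3.54, adjusted p 3.1e-08), Cd33, S100a8, S100a9 and Ctsg. Cd33, a sialic acid lectin of myeloid cells, was at 16.8, 1.94, 28.5, 13.4 and 2.89 CPM in transformed 4 to 8, so that each lane 7 library lay above both lane 6 libraries. With 2 libraries on lane 6, both of which belong to the close group, a difference of the lane and one of those 2 libraries cannot be told apart.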

How the data were processed

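The members and gene lists were chosen with earlier results of these data known. The authors deposited a table of counts per gene. Per the submitters' processing notes, reads were processed with STAR 2.5.3a and featureCounts 1.5.3 on mm10 (GRCm38.p5). Strand, reads with several positions and annotation release: not given in the sources used here. Genes were matched by identifier to GENCODE M21 (105 did not match, holding 0.0193% of counts). A symbol shared by several identifiers was kept for the one with the most counts (89 others were renamed).

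Only the 5 transformed libraries entered the analysis, with the mean CPM limit at 1. Counts were scaled by TMM in edgeR 4.0.16 (R 4.3.3), and log2 CPM used a prior count of 2. Ranges, splits, lists and segments are counts by size with no test. The lane test used edgeR's quasi-likelihood fit with Benjamini-Hochberg adjustment over all genes, and DESeq2 1.42.0 as the alternative. In an alternative added after seeing the data, a loess trend on transcript GC content was removed from each library. The scripts were checked on simulated counts.

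Named genes were taken by rule. They were the 2 with the largest gap in each library and direction (mean of 5 CPM or more), the 10 of largest range (10 CPM or more), and the 10 of smallest SD (50 CPM or more). To these were added the 2 of largest range in each of 33 lists, 3 and the end genes of each segment, and U2af1, Il3, Il3ra, Csf2rb and Atg7. Further list members are named as examples, chosen after their values were seen. No label calls the libraries separate cultures, so p-values cover only this spread, which may be technical. A few genes taken by these rules are not reported here.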

Additional observations from a re-analysis of the deposited data

Results flagged for a closer look

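In each value below, 1 of the 5 libraries lay apart from the other 4 by more than 0.71 of the whole range. Chance gives this in about 1 in 20 groups, and 1999 of 13991 genes (14.3%) showed it. Among 155 named genes, 31 did: 19 by transformed 4, 11 by transformed 7 and 1 by transformed 8. Many of the 155 were named for a large gap or range, so their share cannot be set against that of all genes.

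High in transformed 4 were F13a1 (60.4 CPM), Ttll13 (54.5 CPM), Cd79b (21.9 CPM), Rpl8 (3009 CPM), Gsn (156 CPM), Fut7 (37.5 CPM), Serinc3 (1648 CPM), Zfp971 (35.0 CPM), Cdh24 (26.2 CPM) and Mfng (25.6 CPM). Low in it were Il2ra (2.27 CPM), Olfm3 (0 CPM), Gvin1 (0.662 CPM), Mycn (1.42 CPM), Slamf1 (0.14 CPM), Dusp5 (16.9 CPM), Pik3cb (28.9 CPM), Rbm6 (83.0 CPM) and Hdhd2 (22.4 CPM). High in transformed 7 were P2rx3 (37.9 CPM) and Cd74 (312 CPM). Low in it were Trim58 (1.53 CPM), Prtn3 (1.79 CPM), Tk1 (60.5 CPM), Nop10 (106 CPM), Dhcr7 (30.8 CPM), Scd1 (5.25 CPM), Nqo1 (2.10 CPM), Mknk2 (46.7 CPM) and Uqcr11 (32.9 CPM). Nrbp2 was low in transformed 8 (33.1 CPM).

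Of 33 list means, 4 did so: stem and progenitor genes in transformed 4 (-0.81) and cytosolic ribosomal proteins in the same library (0.11), and mitosis (-0.28) and cholesterol synthesis (-0.63) in transformed 7. In the stem and progenitor list, transformed 4 was the lowest in 4 of 8 measured genes, Mycn and Slamf1 among them, and the highest in the other 4.

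Of the 11 segments, chosen because 1 library is shifted, 10 did so. In transformed 4 these were the chromosome 2 segments (0.33, 0.34, 0.32 and 0.33), chromosome 9 (-0.35 and -0.31), chromosome 11 (-0.28), chromosome 14 (0.41) and chromosome 18 (-0.40). In transformed 7 it was chromosome 10 (-0.32, and -0.18 with the GC trend removed). Over whole chromosomes, chromosome 2 (0.30) and chromosome 9 (-0.15) stood apart in transformed 4.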

How the results depend on the processing

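The counts of varying genes rest on transformed 4 and 7. Leaving out each library in turn gave 267 to 586 genes with a 4-fold range in place of 576 (274 without transformed 4, 267 without transformed 7), 1123 to 2645 with a 2-fold range in place of 2716 (1641 and 1123), and 3161 to 5993 constant genes in place of 2777 (5101 and 5993). It gave 13 to 18 varying lists in place of 18. Segments numbered 1 to 10 in place of 11 (1 without transformed 4, 6 without transformed 5). The median over pairs of the pair difference was 0.179 to 0.278 in place of 0.252. With transformed 5, 6 and 8 only, chosen after seeing the data, these were 34, 199, 10588, 9 lists, 0 segments and 0.110. With lane 7 libraries only, 4233 genes were constant. A mean CPM limit of 5 gave 313 and 1727 genes with 4-fold and 2-fold ranges, and a limit of 0.1 gave 1349 and 5762, since more or fewer low genes were counted. A narrower window (31 genes) and a wider one gave 18 and 4 segments, and a threshold of 0.35 gave 2. Of 429 alternative values of list ranges, 61 moved by at least the SD over the 5 libraries, and of 1985 values of gene ranges, 304 did. Of 67 chromosome values, none moved by 0.1 or more on the log2 scale. That fixed limit is large beside the shifts of chromosome 4 in transformed 6 (0.13) and chromosome 9 in transformed 4 (-0.15). No chromosome value changed sign. A range has no sign, so a reversal could not be seen in the list and gene values. Removal of the GC trend left 554 genes with a 4-fold range and 11 segments, 8 of the 11 first marked overlapping them, and moved the range of the mitochondrially encoded list to 0.398, of the MHC list to 0.52 and of the IL-3 receptor list to 0.185. edgeR called 0 genes by lane when any 1 library was left out (52 to 892 at an unadjusted p under 0.05), and DESeq2 called 12. No paired analysis was possible because the 5 libraries are 1 group with different replicate numbers. Depth limits genes near 1 CPM, and the lane test has 2 libraries on 1 side.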
